A study of Homo sapiens with 12 samples.

Results

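The comparison set the EB-resistant line against the VC-resistant line directly, with the parent left aside, and asked which gene programmes separate these resistant states. Both lines were derived from WM1366, a human melanoma cell line with mutant NRAS. EB-resistant cells were grown in encorafenib with binimetinib, and VC-resistant cells in vemurafenib with cobimetinib. Each pair joins a BRAF inhibitor to a MEK inhibitor. The libraries were chosen by their titles, 3 from EB-resistant and 3 from VC-resistant cells, which is 6 of the 12 in the series, and all genes were used. The other 6 came from the sensitive parent, kept in DMSO, and from a line resistant to dabrafenib with trametinib (DT-resistant). Cells were seeded 72 h before lysis in medium that held their drugs, at doses not given in the sources used here. Each resistance is represented by 1 line, and its libraries, numbered 2, 5 and 6, are separate experiments with that line. The p-values therefore describe how far experiments with 1 line varied and not how far independent resistant lines would, and a difference cannot be assigned to the drug pair, since line and drug pair cannot be told apart.

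As background, mutant NRAS signals through RAF kinases to MEK and ERK, and ERK switches on genes that include its own feedback inhibitors, so their transcripts are read as a gauge of pathway output. BRAF inhibitors can stimulate RAF dimers in cells with mutant RAS, and a MEK inhibitor blocks the next step. Melanoma cells that escape such drugs often leave the pigment cell state for a dedifferentiated one with mesenchymal matrix, receptor tyrosine kinases and inflammatory signals.

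Library totals ran from 40491309 to 54495132 counts among the 6 libraries, and 17114 of 23497 genes had enough counts to be tested. Levels are CPM, counts scaled by library total and composition, per 1000000, and a log2 fold change (log2FC) is EB-resistant over VC-resistant with its standard error. Among melanocyte lineage genes, MITF, the master regulator of the lineage, was present in every library, with 50.3, 53.3 and 56.3 CPM in EB-resistant and 72.9, 62.3 and 64 CPM in VC-resistant libraries. PMEL, a pigment granule protein, stood at 0.526 ± 0.0602 CPM in EB-resistant and 0.379 ± 0.206 CPM in VC-resistant cells, DCT had 11 counts over the EB-resistant and 15 over the VC-resistant libraries, and TYR, MLANA and SOX10 were not analysed here. Of the markers of other cell types, PTPRC, the common leukocyte antigen, was at 0.753 ± 0.284 CPM in EB-resistant and 0.0779 ± 0.0222 CPM in VC-resistant cells, and EPCAM and CD3E were not analysed here. Of the 3 tested leukocyte markers 2 were called higher. Their summed level ran from 1.20 to 1.30 CPM in EB-resistant and from 0.262 to 0.352 CPM in VC-resistant libraries. CD68, also a leukocyte marker, had 11 counts over the EB-resistant and 9 over the VC-resistant libraries. Epithelial markers, 1 higher and 1 lower of 3, summed to 181 to 207 CPM against 79.8 to 96.9 CPM. Endothelial markers, 3 higher and 1 lower of 5, summed to 72.9 to 89.2 CPM against 57.9 to 63.5 CPM. Neuronal and Schwann markers, 0 higher and 2 lower of 5, summed to 36.2 to 44.5 CPM against 78.2 to 87.7 CPM. The part of these markers in the results was not tested.

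Most genes tested differed between the lines. Of 17114 genes tested, 5070 were higher in EB-resistant cells (29.6%) and 4921 were lower (28.8%) at an adjusted p under 0.05, 58.4% in all. Requiring at least a 2-fold difference left 2173 higher (12.7%) and 1525 lower (8.91%). In 11302 of the genes tested (66%) the 3 libraries of 1 line did not overlap the 3 of the other. The log2 fold changes of all genes had a median within 0.001 of 0. The scaling for composition places the bulk of them near 0, so this median is not a finding. That scaling takes most genes as alike, which was not tested, and small shifts of a gene group depend on it. At least 4-fold differences numbered 939 higher and 529 lower. Libraries of 1 line correlated across genes at r of 0.992 to 0.994 within EB-resistant and 0.989 to 0.993 within VC-resistant, against 0.936 to 0.942 between the lines. With so many calls, the counts of each gene group below are read against 29.6% higher and 28.8% lower, and the size of the differences carries more than their number. Gene groups in which most tested members lay on 1 side included ERK output, unfolded protein response, ribosomal protein and mitotic genes on the lower side, and histone, fibroblast, collagen, complement, NRF2 and cholesterol genes on the higher side.

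**Figure D1:**
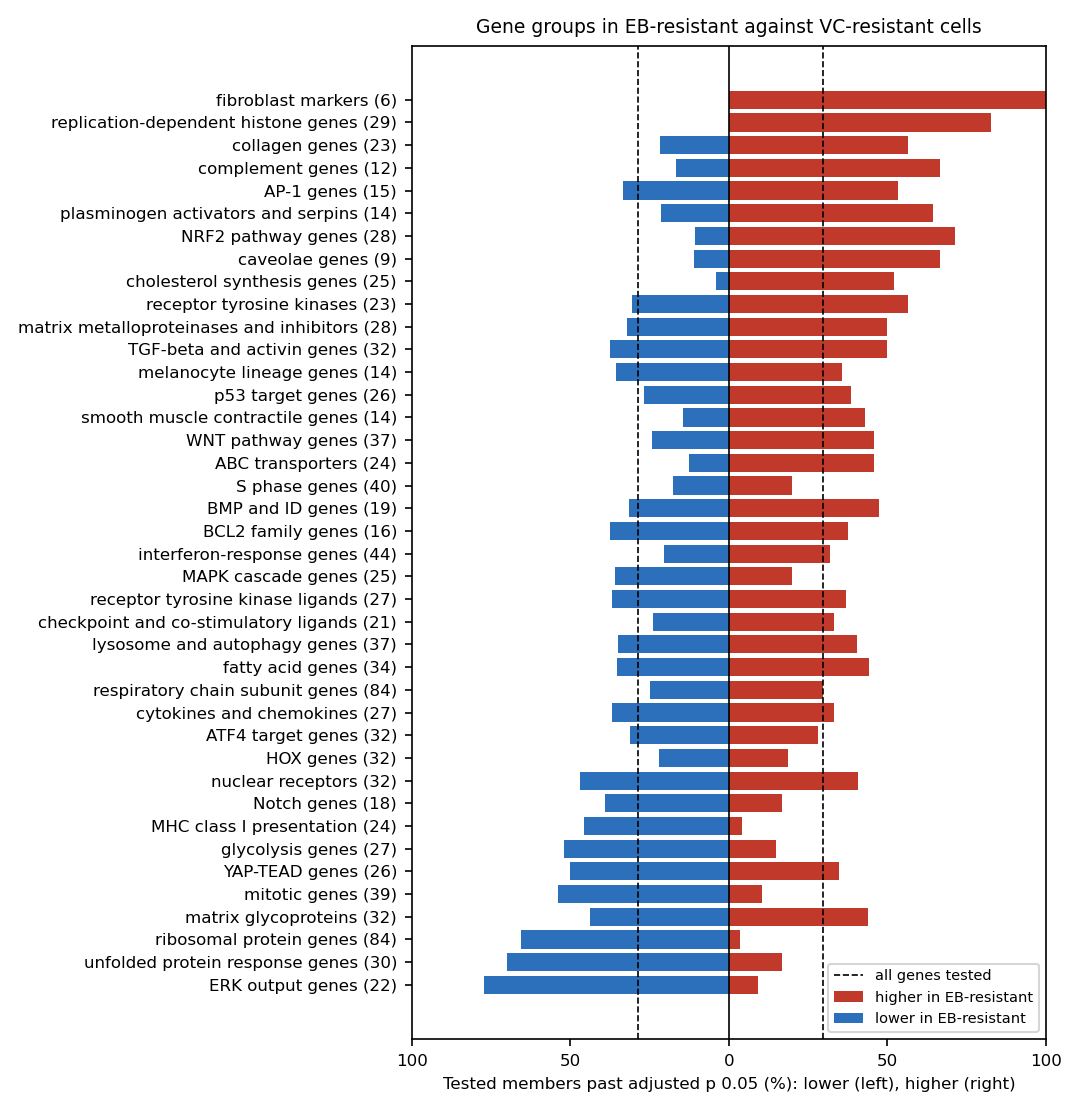
Share of the tested members of 40 gene groups past an adjusted p of 0.05, lower in EB-resistant cells to the left in blue and higher to the right in red, with the number tested in brackets and groups ordered by their median log2FC. Dashed lines mark the shares of all genes, 28.8% lower and 29.6% higher. ERK output genes lie at the bottom with 77.3% lower, and fibroblast markers and histone genes at the top with 100% and 82.8% higher.

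ERK output transcripts were mostly lower in EB-resistant cells. In EB-resistant cells 17 of 22 tested ERK output genes were lower and 2 were higher, with a median log2FC of -0.83. SPRY4, which dampens signals from growth factor receptors, had 1.44, 0.509 and 0.861 CPM in the EB-resistant libraries, against 55.4, 43.5 and 37.3 CPM in the VC-resistant libraries (log2FC -5.6 ± 0.31, adjusted p = 5.02e-08). DUSP6, the phosphatase that inactivates ERK, had 5.75, 4.78 and 6.37 CPM in EB-resistant and 44.1, 38.8 and 31.3 CPM in VC-resistant libraries (log2FC -2.75 ± 0.18, adjusted p = 6.21e-08). Every EB-resistant library lay far below every VC-resistant library for both genes, with no overlap. The lines did not overlap for 66% of all genes tested, in either direction. Another ERK phosphatase, DUSP5, showed 13.7, 7.27 and 11.9 CPM against 225, 133 and 168 CPM (log2FC -4.0 ± 0.31, adjusted p = 3.07e-06). ETV1, ETV4 and ETV5, the PEA3 group of ETS transcription factors, were lower with log2FC of -4.16, -3.44 and -1.26. ETV4 held 5.17, 4.82 and 5.21 CPM in EB-resistant and 53.7, 54.6 and 56.8 CPM in VC-resistant libraries, with little spread inside either line. RNA was taken from whole cultures, so fewer cells with a transcript and less of it per cell cannot be told apart, here and in every result that follows.

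ERK output genes that act in growth had the same direction. CCND1, which encodes cyclin D1, had 46.5, 30.9 and 35.3 CPM in EB-resistant and 172, 174 and 189.9 CPM in VC-resistant libraries (log2FC -2.25 ± 0.12, adjusted p = 2.99e-09). MYC stood at 37.3, 40.0 and 36.6 CPM against 217, 126 and 98.7 CPM (log2FC -1.96 ± 0.32, adjusted p = 0.000543), and its VC-resistant libraries were much more spread than its EB-resistant ones. The exceptions were EPHA4, an ephrin receptor (log2FC 1.55 ± 0.12, adjusted p = 5.41e-08), and IER3, an early response gene (log2FC 0.98 ± 0.13, adjusted p = 1.38e-05), both higher in EB-resistant cells. SPRY2 differed little by comparison, at 55.3 ± 4.6 CPM in EB-resistant and 72.4 ± 2.49 CPM in VC-resistant cells (log2FC -0.39 ± 0.10, adjusted p = 0.00454). EGR1, LIF and SPRY1 were not called. Without EB-resistant replicate 6, EGR1 had a log2FC of -1.91 (edgeR adjusted p = 0.0266), and without EB-resistant replicate 5, SPRY1 had -0.90 (adjusted p = 0.0296).

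**Figure D2:**
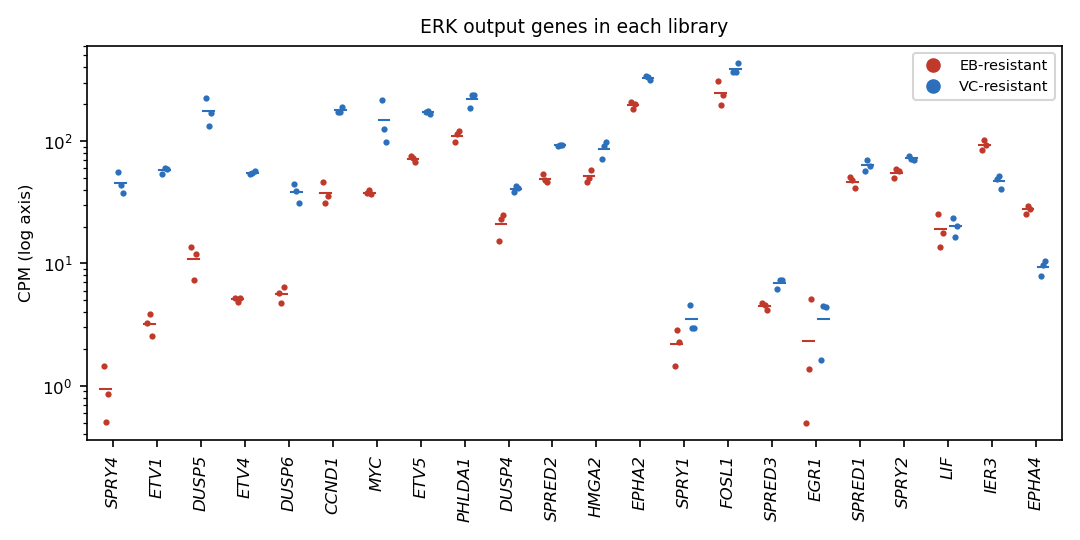
CPM on a log axis of the 22 tested ERK output genes in each library, EB-resistant in red and VC-resistant in blue, with a line at the mean of 3 libraries and genes ordered by log2FC. From SPRY4 to DUSP4 at the left the red points lie below the blue ones without overlap. Lack of overlap, in either direction, held for 66% of all genes tested. IER3 and EPHA4 at the right are the 2 genes called higher in EB-resistant cells.

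The cascade itself differed unevenly. Of 25 tested cascade genes 5 were higher and 9 lower in EB-resistant cells (median log2FC 0.07). MAP2K1, which encodes MEK1, stood at 38.1 ± 1.79 CPM in EB-resistant and 86.2 ± 1.02 CPM in VC-resistant cells (log2FC -1.18 ± 0.066, adjusted p = 2.52e-09), and BRAF at 28.8 ± 1.74 CPM against 46.3 ± 2.02 CPM (log2FC -0.69 ± 0.11, adjusted p = 0.000108). NRAS, the mutated oncogene, had 384, 397 and 389 CPM in EB-resistant and 374, 353 and 376 CPM in VC-resistant libraries and was not called (log2FC 0.09 ± 0.058, adjusted p = 0.225). On the higher side were MRAS, a RAS relative that acts in the SHOC2 phosphatase complex, with 32.6, 39 and 39.5 CPM against 8.53, 6.49 and 5.54 CPM (log2FC 2.44 ± 0.20, adjusted p = 3.48e-07), and the ERK gene MAPK3 (log2FC 0.51).

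Receptor tyrosine kinases were mostly higher in EB-resistant cells, and their ligands split. Of 23 tested receptors 13 were higher and 7 lower (median log2FC 0.51). PDGFRB, the PDGF receptor beta, had 67.7, 88.3 and 67.4 CPM in EB-resistant libraries, against 2.78, 2.77 and 2.24 CPM in VC-resistant libraries (log2FC 4.85 ± 0.16, adjusted p = 1.34e-11). KIT, the receptor that melanoblasts need, had 49.9, 59.1 and 64.1 CPM against 9.34, 12 and 11.9 CPM (log2FC 2.38 ± 0.20, adjusted p = 3.09e-07). PDGFRB was low in every VC-resistant library, while KIT was present in both lines. ROR1, a WNT5A receptor, was at 17.7 ± 2.81 CPM in EB-resistant and 1.65 ± 0.824 CPM in VC-resistant cells, and ERBB3, the neuregulin receptor, at 3.53 ± 0.433 CPM against 0.879 ± 0.322 CPM, both called higher. AXL, the GAS6 receptor, was abundant in both, with 1254, 1287 and 1287 CPM in EB-resistant and 1574, 1499 and 1546 CPM in VC-resistant libraries (log2FC -0.27 ± 0.082, adjusted p = 0.0104). EGFR was not called (151 ± 9.24 CPM against 176 ± 7.59 CPM, adjusted p = 0.089), NGFR was at most 0.262 CPM in any library, and MET, the HGF receptor, was higher by a log2FC of 0.51. Lower receptors were TYRO3, a relative of AXL (18.4 ± 0.397 CPM against 47.7 ± 1.22 CPM), and INSR, the insulin receptor (0.978 ± 0.462 CPM against 4.61 ± 0.757 CPM).

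Among 27 tested ligands of these receptors 10 were higher and 10 lower. The EGFR ligands HBEGF and AREG were lower in EB-resistant cells. HBEGF had 108, 78.7 and 91.5 CPM in EB-resistant and 208, 220.3 and 263 CPM in VC-resistant libraries (log2FC -1.31 ± 0.13, adjusted p = 1.55e-06), and AREG, or amphiregulin, had 0.25, 0.204 and 0.147 CPM against 3.62, 3.06 and 3.4 CPM (log2FC -4.05 ± 0.44, adjusted p = 2.31e-06). The neuregulin gene NRG1 went the other way, with 116, 86.2 and 104 CPM in EB-resistant and 56.3, 42.3 and 40.0 CPM in VC-resistant libraries (log2FC 1.14 ± 0.17, adjusted p = 8.51e-05). The fibroblast growth factors divided within the family: FGF1 and FGF5 were lower (log2FC -2.32 and -2.31), and FGF2 was higher (log2FC 0.77).

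EB-resistant cells carried more transcripts of fibroblast-type matrix. All 6 tested fibroblast markers were higher in them, and their summed level ran from 528 to 591 CPM in EB-resistant and from 281 to 314 CPM in VC-resistant libraries. COL1A1, a chain of type I collagen, had 15.3, 22.9 and 15.6 CPM in EB-resistant and 1.02, 0.506 and 0.28 CPM in VC-resistant libraries (log2FC 4.95 ± 0.52, adjusted p = 1.05e-05). Its partner chain COL1A2 had only 9 counts over the EB-resistant and 1 over the VC-resistant libraries, and the defining fibroblast genes DCN and PDGFRA had 21 and 14 counts over the EB-resistant, against 2 and 3 over the VC-resistant libraries. POSTN, which encodes the matrix protein periostin, went the other way, with 1 count over the EB-resistant and 11 over the VC-resistant libraries. The part of these markers in the other results was not tested. Among 23 tested collagen genes 13 were higher and 5 lower (median log2FC 1.35). The basement membrane collagen COL4A5 and the network collagen COL8A1 were higher (log2FC 2.49 and 2.47), and COL8A1 reached 824 ± 160.5 CPM in EB-resistant and 149 ± 56.8 CPM in VC-resistant cells. PCOLCE, which speeds the trimming of procollagen, was at 54.1 ± 5.64 CPM in EB-resistant and 0.517 ± 0.35 CPM in VC-resistant cells (log2FC 6.78 ± 0.29, adjusted p = 1.77e-09; log2FC 7.41 without VC-resistant replicate 2). COL13A1 and COL15A1 were lower (log2FC -1.88 and -1.64).

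Of the non-collagen matrix, 14 of 32 tested glycoproteins were higher and 14 lower in EB-resistant cells. THBS1, thrombospondin 1, an inhibitor of blood vessel growth, had 1355, 1623 and 1772 CPM in EB-resistant and 216, 209.6 and 207 CPM in VC-resistant libraries (log2FC 2.91 ± 0.21, adjusted p = 5.77e-07). EMILIN1, an elastic fibre glycoprotein, had 50.5, 51.1 and 40.2 CPM against 1.23, 0.506 and 0.298 CPM (log2FC 6.2 ± 0.29, adjusted p = 9.09e-09; log2FC 6.89 without VC-resistant replicate 2). Fibronectin (FN1) was at 518 ± 42.5 CPM in EB-resistant and 92.2 ± 62.5 CPM in VC-resistant cells and SPARC at 1188 ± 114 CPM against 545 ± 125 CPM, both called higher, FN1 with a log2FC of 2.49, or 3.2 without VC-resistant replicate 2. On the lower side were the laminin chains LAMA4 (log2FC -2.79) and LAMB1 (log2FC -1.06), TGFBI (log2FC -2.29) and the matricellular YAP targets CCN1 and CCN2. CCN1 had 1915, 2109 and 2209 CPM in EB-resistant and 7345, 4606 and 4112 CPM in VC-resistant libraries (log2FC -1.37 ± 0.23, adjusted p = 0.000405). Another YAP target, ANKRD1, was at 213 ± 43.7 CPM against 833 ± 53.4 CPM (log2FC -1.97 ± 0.14, adjusted p = 1.49e-07), and in the YAP-TEAD group 13 of 26 were lower and 9 higher.

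Among matrix metalloproteinases and their inhibitors 14 of 28 tested genes were higher and 9 lower. MMP1, the interstitial collagenase, had 3.06, 1.38 and 2.52 CPM in EB-resistant and 36.9, 95 and 88.5 CPM in VC-resistant libraries (log2FC -4.99 ± 0.59, adjusted p = 8.09e-05), while MMP2, a gelatinase, had 165, 189 and 135 CPM against 44.3, 25.8 and 16.9 CPM (log2FC 2.49 ± 0.36, adjusted p = 0.000231). Neither MMP1 nor MMP2 overlapped between the lines, and lack of overlap, in either direction, held for 66% of all genes tested. TIMP3, an inhibitor of matrix metalloproteinases, was at 43.7 ± 7.51 CPM in EB-resistant and 0.728 ± 0.37 CPM in VC-resistant cells. The aggrecanase ADAMTS5 was at 309.9 ± 57.5 CPM against 16.5 ± 2.11 CPM, and both genes were called higher. SERPINB2, the plasminogen activator inhibitor type 2, stood at 34.1 ± 7.11 CPM against 0.218 ± 0.15 CPM (log2FC 7.19 ± 0.34, adjusted p = 1.94e-09; log2FC 7.98 without VC-resistant replicate 6), and of 14 genes of the plasminogen and serpin group 9 were higher and 3 lower. PLAUR, the urokinase receptor, was among the lower ones (log2FC -1.58). Of 14 smooth muscle contractile genes 6 were higher and 2 lower, and close relatives differed in direction. The actin-binding calponin CNN1 was higher (26, 32.5 and 25.9 CPM in EB-resistant, 5.67, 3.74 and 2.13 CPM in VC-resistant libraries), and the calponin family member transgelin (TAGLN) was lower (6.4, 7.8 and 7.86 CPM in EB-resistant, 87.9, 68.8 and 55.9 CPM in VC-resistant libraries). In the caveolar coat 6 of 9 genes were higher and 1 lower, led by EHD2 (log2FC 1.97) and caveolin 1 (CAV1, log2FC 1.5).

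Cytokines and chemokines stood near the background as a group, with 9 of 27 tested genes higher and 10 lower, but single members differed by large amounts. Several interleukins were lower. IL1B had 5.25, 1.77 and 2.33 CPM in EB-resistant and 47.2, 72.4 and 76.5 CPM in VC-resistant libraries (log2FC -4.39 ± 0.63, adjusted p = 0.000274; log2FC -4.99 without EB-resistant replicate 2). IL6 had 77.8, 49 and 65.7 CPM against 188, 224 and 191 CPM (log2FC -1.65 ± 0.31, adjusted p = 0.0014), and IL11 and IL24 were lower with log2FC of -3.63 and -2.8. CCL2, the monocyte attractant, was on the higher side, with 15.2, 9.53 and 9.41 CPM in EB-resistant and 0.105, 0.066 and 0.0187 CPM in VC-resistant libraries (log2FC 7.53 ± 0.37, adjusted p = 7.05e-10). CSF1, the macrophage growth factor, was at 89.4 ± 9.52 CPM in EB-resistant and 31.3 ± 4.43 CPM in VC-resistant cells (log2FC 1.52 ± 0.13, adjusted p = 1.77e-07). CXCL8 overlapped between the lines and was not called, with 285, 46.9 and 65.8 CPM in EB-resistant and 38.5, 167 and 195 CPM in VC-resistant libraries (adjusted p = 0.995).

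The complement group leaned to the high side, 8 of 12 tested genes higher and 2 lower in EB-resistant cells (median log2FC 1.22). The paired C1 proteases were low in VC-resistant cells, with C1R at 9.04 ± 0.29 CPM in EB-resistant and 0.338 ± 0.044 CPM in VC-resistant cells (log2FC 4.72 ± 0.47, adjusted p = 2.94e-06) and C1S at 12.6 ± 1.18 CPM against 0.333 ± 0.02 CPM (log2FC 5.22 ± 0.63, adjusted p = 3.91e-05). CD55, which protects cells from complement, was lower at 90.4 ± 6.36 CPM against 301 ± 20.4 CPM (log2FC -1.73 ± 0.14, adjusted p = 3.26e-07). Of 15 tested AP-1 transcription factor genes 8 were higher and 5 lower. JUN, JUNB and JUND were higher (log2FC 0.86, 0.87 and 0.98), while FOSL1 and FOSL2 were lower (log2FC -0.64 and -0.99).

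Genes of antigen presentation by MHC class I were mostly lower or not called, with 11 of 24 lower and 1 higher, or 2 higher without VC-resistant replicate 6 (median log2FC -0.22). B2M, the light chain of all class I molecules, had 678, 644 and 629 CPM in EB-resistant and 1174, 994 and 1061 CPM in VC-resistant libraries (log2FC -0.73 ± 0.15, adjusted p = 0.00119). The heavy chains HLA-B and HLA-C were not called (adjusted p = 0.479 and 0.567). The HLA genes resemble each other closely, which leaves the split of reads among them uncertain. PDIA3, a disulfide isomerase of the peptide-loading complex, and the peptidases ERAP1 and ERAP2, which trim peptides for class I, were lower too (log2FC -1.11, -0.69 and -0.77), while NLRC5, the class I transactivator, was higher (log2FC 0.69). Interferon-response genes stood near the background on the higher side and below it on the lower side, 14 of 44 higher and 9 lower, and their members split: XAF1, an antagonist of apoptosis inhibitors, was higher (log2FC 1.64), and IFIT2, which restrains translation of viral RNA, was lower (log2FC -1.24). Genes of MHC class II were low in both lines. Of 10 tested 5 were higher and 5 lower in EB-resistant cells (median log2FC 0.43). CD74, the invariant chain, was at 6.94 ± 1.22 CPM in EB-resistant and 24 ± 1.42 CPM in VC-resistant cells.

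CD274, which encodes PD-L1, had 48.4, 35.3 and 41.1 CPM in EB-resistant libraries, against 318, 196 and 200.2 CPM in VC-resistant libraries (log2FC -2.52 ± 0.21, adjusted p = 2.35e-06), and its relative PD-L2 (PDCD1LG2) was lower as well (log2FC -0.99). VSIR, which encodes the checkpoint protein VISTA, had 12.1, 13.2 and 12.2 CPM in EB-resistant libraries and 1 count in all 3 VC-resistant libraries together, in replicate 2. PVR, a ligand of TIGIT and CD226, was also lower (139 ± 9.09 CPM in EB-resistant, 279 ± 32.6 CPM in VC-resistant cells). In the whole group of 21 tested checkpoint and co-stimulatory ligands 7 were higher and 5 lower, near the background, and 4 were higher without VC-resistant replicate 6.

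Of 14 tested melanocyte lineage genes 5 were higher and 5 lower, and 3 were higher when replicate 5 of the EB-resistant line, or replicate 5 or 6 of the VC-resistant line, was left out. TFAP2B, a neural crest transcription factor, had 15.8, 19 and 16.7 CPM in EB-resistant libraries and 0 counts in every VC-resistant library, and its relative TFAP2A had a log2FC of 0.66, a call that was lost without EB-resistant replicate 5 (0.56, adjusted p = 0.0548), VC-resistant replicate 5 (0.55, adjusted p = 0.0596) or VC-resistant replicate 6 (0.53, adjusted p = 0.058). MITF was lower by a small amount (log2FC -0.32 ± 0.093, adjusted p = 0.00881), and LEF1, a WNT effector, was lower by more (log2FC -1.34 ± 0.17, adjusted p = 1.04e-05). Of 14 tested genes of the dedifferentiated set 3 were higher and 7 lower in EB-resistant cells (median log2FC -0.40), and SOX9 was lower (log2FC -1.05). L1CAM, an adhesion molecule of nerve and melanoma cells, was higher at 327 ± 37.7 CPM in EB-resistant and 44.4 ± 26.4 CPM in VC-resistant cells (log2FC 2.88 ± 0.51, adjusted p = 0.00106). WNT5A was not called, at 64.9 ± 15.3 CPM against 64.8 ± 6.99 CPM (adjusted p = 0.985). Among WNT pathway genes 17 of 37 were higher and 9 lower. FZD2 and FZD7, which encode WNT receptors, and WNT5B and the secreted inhibitor DKK1 were among the higher ones (log2FC 1.08, 1.06, 1.23 and 1.37). RNF43, a membrane ubiquitin ligase that removes WNT receptors, was lower (log2FC -1.96).

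In the BMP branch BMP2 and BMP4 were higher. BMP2 had 13, 13.3 and 10.1 CPM in EB-resistant and 1.47, 0.858 and 0.97 CPM in VC-resistant libraries (log2FC 3.48 ± 0.32, adjusted p = 9.2e-07), and BMP4 was at 41.6 ± 8.1 CPM against 8.7 ± 1.77 CPM (log2FC 2.26 ± 0.16, adjusted p = 2.55e-08). ID2, a classical BMP target, was higher (log2FC 2.47), but ID1 and ID3 were not called. In the TGF-beta and activin group 16 of 32 were higher and 12 lower. INHBE, an activin subunit, was at 108 ± 17.6 CPM in EB-resistant and 4.57 ± 1.27 CPM in VC-resistant cells (log2FC 4.57 ± 0.33, adjusted p = 1.01e-06), and the receptor gene TGFBR1 had 239.9, 256 and 219 CPM in EB-resistant against 1086, 948 and 888 CPM in VC-resistant libraries (log2FC -2.03 ± 0.09, adjusted p = 2.86e-10). Of 32 nuclear receptors 13 were higher and 15 lower. NR5A1, the steroidogenic factor, had 1 count, in replicate 5, over the EB-resistant libraries and 13.9, 13.6 and 12 CPM in the VC-resistant libraries. The immediate early receptors NR4A1, NR4A2 and NR4A3 were all lower (log2FC -2.36, -2.76 and -4.22), and RXRA, the common partner of many receptors, was higher at 40.8 ± 3.39 CPM against 5.42 ± 0.379 CPM (log2FC 2.91 ± 0.12, adjusted p = 9.12e-11).

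Mitotic genes were mostly lower in EB-resistant cells. Of 39 tested mitotic genes 21 were lower and 4 higher in EB-resistant cells (median log2FC -0.27). Of the 40 S phase genes 8 were higher and 7 lower, counts that rested on single libraries. There were 4 higher and 4 lower without EB-resistant replicate 2, 3 lower without EB-resistant replicate 5, 2 higher without EB-resistant replicate 6, likewise 2 higher without VC-resistant replicate 2, and 5 higher and 3 lower without VC-resistant replicate 6. PTTG1, which encodes securin, had 94.8 ± 1.94 CPM in EB-resistant and 193 ± 10.9 CPM in VC-resistant cells (log2FC -1.02 ± 0.067, adjusted p = 1.06e-08), and CDK1, the mitotic kinase, 132 ± 3 CPM against 202 ± 10.3 CPM (log2FC -0.61 ± 0.078, adjusted p = 8.6e-06). MKI67, the proliferation marker Ki-67, was not called (283 ± 29 CPM against 323 ± 5.69 CPM, adjusted p = 0.152). Inhibitors of cyclin-dependent kinases were higher for CDKN1A (p21, 28, 9.55 and 22.5 CPM in EB-resistant, 3.62, 3.83 and 4.03 CPM in VC-resistant libraries) and for CDKN2B (p15, 37.4, 26.5 and 23.2 CPM in EB-resistant, 7.16, 4.4 and 4.61 CPM in VC-resistant libraries). CDKN2A (p16 and ARF) was level, with 117 ± 3.17 CPM against 118 ± 14.4 CPM. Other p53 targets gave no common direction, 10 of 26 higher and 7 lower, with BTG2 higher (log2FC 4.15) and PMAIP1, which encodes the death protein NOXA, lower (log2FC -1.43).

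Histone genes of the replication-dependent type, whose mRNAs mostly end without a poly(A) tail, were higher for 24 of 29 tested members and lower for 0, or for 1 without EB-resistant replicate 5 (median log2FC 1.72). H2AC6 had 64, 79.5 and 64.3 CPM in EB-resistant and 20.6, 14.3 and 14.9 CPM in VC-resistant libraries (log2FC 2.06 ± 0.29, adjusted p = 0.000146), and H1-2, a linker histone, was at 34.1 ± 5.97 CPM against 11.2 ± 1.68 CPM (log2FC 1.6 ± 0.19, adjusted p = 7.1e-06). All 46 histone genes together took 0.0341 ± 0.00424% of counts in EB-resistant and 0.0103 ± 0.00065% in VC-resistant libraries (SD, n = 3 each; two-sided exact permutation p = 0.1, the smallest that 3 against 3 can give). The libraries were made from polyadenylated RNA, so these counts show the polyadenylated share only. Reads shared by near-identical histone genes make single members uncertain.

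Cytoplasmic ribosomal protein genes were lower for 55 of 84 tested members and higher for 3 (median log2FC -0.33). RPL32, a component of the large subunit, had 768, 849 and 854 CPM in EB-resistant and 12014, 10634 and 11394 CPM in VC-resistant libraries (log2FC -3.78 ± 0.079, adjusted p = 2.95e-14). The whole group took 5.98 ± 0.287% of counts in EB-resistant and 7.96 ± 0.256% in VC-resistant libraries. RPL32 alone took 0.0866 ± 0.00516% in EB-resistant and 1.10 ± 0.0376% in VC-resistant libraries, and without it the shares were 5.90 ± 0.282% in EB-resistant and 6.86 ± 0.224% in VC-resistant libraries (SD, n = 3 each; two-sided exact permutation p = 0.1 for each). Processed pseudogenes can draw reads from ribosomal protein genes, so single members are uncertain. Besides RPL32 the differences were small, such as RPLP0 at 1699.8 ± 86.2 CPM against 2839 ± 176 CPM (log2FC -0.74 ± 0.065, adjusted p = 1.91e-07) and RPL4 at 1483 ± 68.2 CPM against 2547 ± 145 CPM (log2FC -0.78 ± 0.071, adjusted p = 2.92e-07).

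Genes of the BCL2 family, which holds members for and against cell death, divided 6 higher to 6 lower of 16. BCL2A1, an antiapoptotic member driven by MITF in melanoma, had 2 counts over the EB-resistant libraries and 6.72, 8.34 and 12.4 CPM in the VC-resistant libraries. BCL2 was lower too (5 ± 0.692 CPM against 16 ± 0.664 CPM). BMF, a BH3-only protein that promotes death, had 16.3, 24 and 14.4 CPM in EB-resistant and 0.735, 1.03 and 0.541 CPM in VC-resistant libraries (log2FC 4.57 ± 0.32, adjusted p = 6.17e-08). BIM (BCL2L11), the BH3-only protein that ERK restrains, was not called at 11.5 ± 3.24 CPM against 13.7 ± 1.13 CPM (adjusted p = 0.218), but was lower without EB-resistant replicate 5 (log2FC -0.49, adjusted p = 0.0242).

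Protein folding genes of the endoplasmic reticulum were another group on the lower side. Of 30 tested members 21 were lower and 5 higher in EB-resistant cells (median log2FC -0.45), and 3 were higher when replicate 2 or 5 of the EB-resistant line, or 5 or 6 of the VC-resistant line, was left out. Several of these genes are known for a promoter element, the endoplasmic reticulum stress response element, CCAAT and CCACG with 9 bases of any kind between them, which NFY and ATF6 bind, and 6 of the promoters of the list that hold it are shown. Sequences are RefSeq promoters (GRCh38.p14), 250 bases before to 50 after the start, searched on both strands; the element is in capitals, on the other strand where it begins with CGTGG.
HSPA5 (chr9:125241371-125241429, minus strand): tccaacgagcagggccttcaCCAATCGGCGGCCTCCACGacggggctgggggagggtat
HSP90B1 (chr12:103930196-103930359, plus strand): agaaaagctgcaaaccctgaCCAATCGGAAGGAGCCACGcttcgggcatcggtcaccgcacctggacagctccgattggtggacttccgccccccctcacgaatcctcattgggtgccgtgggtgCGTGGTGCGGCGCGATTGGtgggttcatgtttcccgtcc
PDIA6 (chr2:10812833-10812891, minus strand): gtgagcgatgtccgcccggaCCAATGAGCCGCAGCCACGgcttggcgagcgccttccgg
CALR (chr19:12938364-12938422, plus strand): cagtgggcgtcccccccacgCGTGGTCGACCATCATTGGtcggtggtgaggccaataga
ERO1B (chr1:236282163-236282208, minus strand): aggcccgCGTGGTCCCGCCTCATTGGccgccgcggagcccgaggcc
XBP1 (chr22:28800583-28800641, minus strand): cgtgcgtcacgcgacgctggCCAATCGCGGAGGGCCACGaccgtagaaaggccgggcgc
The element was in 27 of 35116 promoters (0.0769%) and in those of 8 of the 26 list members with a promoter in that table, also CANX and CRELD2. HSP90B1 held it on each strand. It began 66 bases before the start in HSPA5 and 52 in XBP1.

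The chaperones with that element were abundant and differed as follows. HSPA5, the main lumenal chaperone BiP, had 1468, 1423 and 1338 CPM in EB-resistant libraries, against 4551, 3459 and 3261 CPM in VC-resistant libraries (log2FC -1.41 ± 0.18, adjusted p = 4.8e-05). HSP90B1, or GRP94, had 871, 896 and 849 CPM against 1927, 1476 and 1589 CPM (log2FC -0.93 ± 0.13, adjusted p = 3.67e-05). The disulfide isomerase PDIA6, the lectin chaperones CALR and CANX and the oxidase ERO1B were lower as well (log2FC -0.73, -0.67, -0.53 and -1.47). XBP1, the transcription factor spliced by the stress sensor IRE1, and CRELD2 were not called (adjusted p = 0.774 and 0.22). Thus 6 of the 8 members with the element were lower and 0 higher, and of the 18 without it 14 were lower and 4 higher. Of 8 tested genes outside the list that hold the element, 2 were lower and 4 higher. The sensor IRE1 itself (ERN1) was lower (12.3 ± 1.09 CPM against 36.6 ± 0.839 CPM, log2FC -1.57). Targets of ATF4, a further arm of the stress response, stood near the background at 9 higher and 10 lower of 32, with 6 lower without VC-resistant replicate 2.

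Antioxidant genes were mostly higher in EB-resistant cells. Of 28 tested genes of the NRF2 pathway 20 were higher and 3 lower in EB-resistant cells (median log2FC 0.73). NQO1, a quinone reductase, had 367, 312 and 332 CPM in EB-resistant and 86.1, 64.7 and 67.8 CPM in VC-resistant libraries (log2FC 2.21 ± 0.10, adjusted p = 3.28e-10). FTL, the ferritin light chain, had 4363, 4717 and 4865 CPM against 1565, 1250.0 and 1343 CPM (log2FC 1.75 ± 0.10, adjusted p = 3.04e-09). SLC7A11, the cystine importer, stood at 316, 247 and 285 CPM in EB-resistant and 68.5, 77.6 and 78.3 CPM in VC-resistant libraries (log2FC 1.92 ± 0.27, adjusted p = 0.000158). NFE2L2, which encodes NRF2, and its repressor KEAP1 were each higher (log2FC 0.69 and 0.76), and so was SQSTM1, the autophagy receptor that binds KEAP1 (1818 ± 152 CPM against 617 ± 41.1 CPM). The glutathione synthesis gene GCLM was not called (log2FC -0.12), and glutathione reductase (GSR) was lower (log2FC -0.54).

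The export pump ABCC2, also a NRF2 target, had 38.8, 36.4 and 40.6 CPM in EB-resistant and 0.84, 0.88 and 0.821 CPM in VC-resistant libraries (log2FC 5.51 ± 0.19, adjusted p = 1.42e-11). ABCG2 was higher by a small amount (6.43 ± 1.15 CPM against 3.95 ± 0.703 CPM, log2FC 0.69 ± 0.23, adjusted p = 0.0178), a call that was lost without EB-resistant replicate 6 (log2FC 0.57, adjusted p = 0.0735), VC-resistant replicate 2 (0.58, adjusted p = 0.0715) or VC-resistant replicate 5 (0.66, adjusted p = 0.0557), and ABCB1, the classical multidrug pump, was at 0 counts in all 6 libraries. Over all 24 tested ABC transporters 11 were higher and 3 lower.

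**Figure D3:**
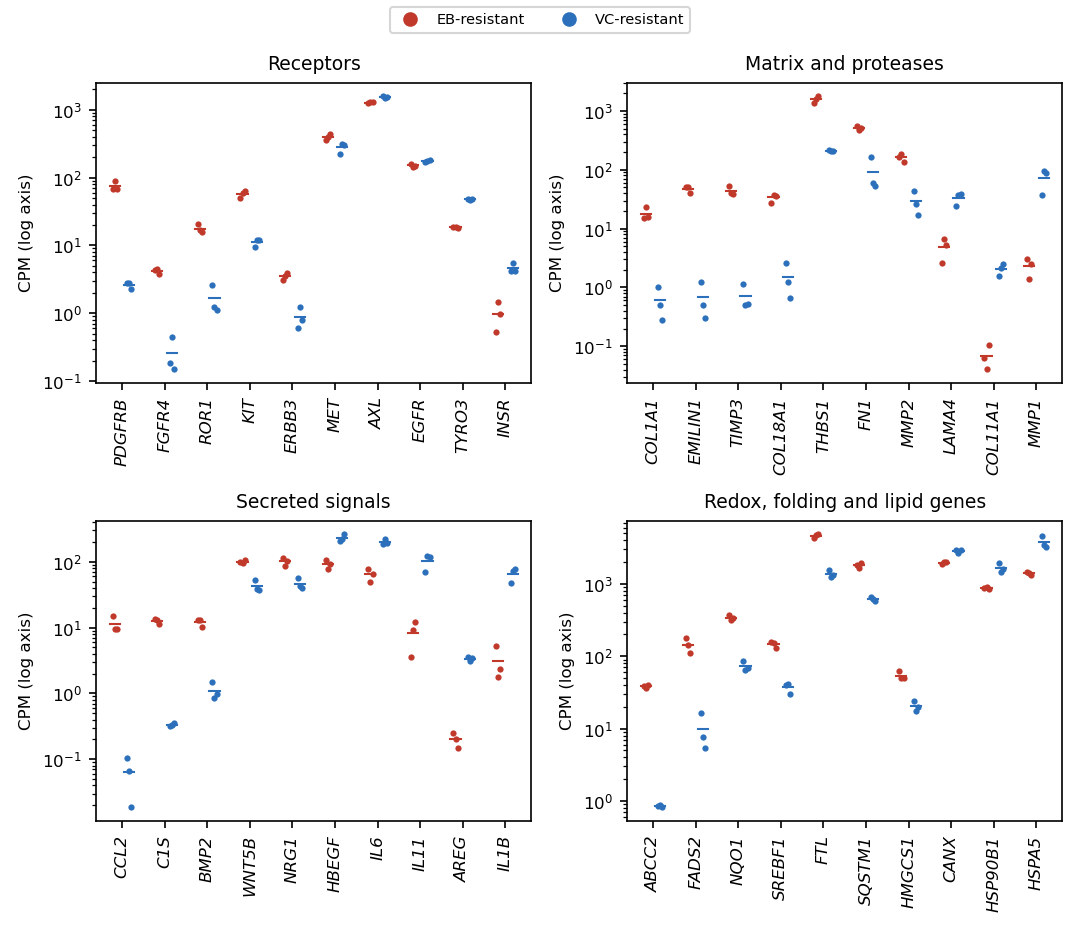
CPM on a log axis of 10 genes each from 4 programmes in every library, EB-resistant in red and VC-resistant in blue, with a line at the mean of 3 libraries. PDGFRB, COL1A1, CCL2 and ABCC2 at the left of their panels are high in red and low in blue, MMP1 and IL1B at the right of theirs are the reverse, and AXL and EGFR lie close together.

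Cholesterol synthesis genes leaned to the higher side and glycolysis genes to the lower side. Of 25 tested genes of cholesterol synthesis and its control 13 were higher and 1 lower (median log2FC 0.56). HMGCS1, an early enzyme of the pathway, was at 54 ± 6.95 CPM in EB-resistant and 20.3 ± 3.13 CPM in VC-resistant cells (log2FC 1.41 ± 0.15, adjusted p = 1.89e-06) and LSS, lanosterol synthase, at 91.3 ± 9.54 CPM against 28.8 ± 5.24 CPM (log2FC 1.66 ± 0.13, adjusted p = 5.06e-08). SREBF1, the master regulator of fatty acid synthesis, had 158, 150.3 and 129 CPM in EB-resistant and 40.0, 40.7 and 30.2 CPM in VC-resistant libraries (log2FC 1.98 ± 0.14, adjusted p = 7.97e-08), and FADS2, a fatty acid desaturase, 179, 142 and 109 CPM against 16.5, 7.68 and 5.43 CPM (log2FC 3.88 ± 0.45, adjusted p = 5.61e-05). Glycolysis genes were lower for 14 of 27 and higher for 4. SLC2A3, the glucose transporter GLUT3, had 11 ± 2.29 CPM in EB-resistant and 102 ± 40.2 CPM in VC-resistant cells (log2FC -3.22 ± 0.31, adjusted p = 1.04e-05), HK2, a hexokinase, 79 ± 3.68 CPM against 222 ± 25.2 CPM (log2FC -1.49 ± 0.12, adjusted p = 2.11e-07), and GLUT1 (SLC2A1) was not called. Respiratory chain genes encoded in the nucleus gave 25 higher and 21 lower of 84, near the background, with 16 higher without EB-resistant replicate 6. Messages of the mitochondrial genome made up 1.80 ± 0.546% of counts in EB-resistant and 1.58 ± 0.256% in VC-resistant libraries (SD, n = 3 each; two-sided exact permutation p = 0.7).

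Of 19 integrin genes 7 were higher and 9 lower in EB-resistant cells. ITGB3, the beta chain of the vitronectin receptor, had 2.11, 2.18 and 1.51 CPM in EB-resistant and 53, 36.2 and 29.9 CPM in VC-resistant libraries (log2FC -4.36 ± 0.28, adjusted p = 9.14e-08), and ITGB8, whose integrin releases TGF-beta from its latent form, had 72.5, 67.8 and 60.2 CPM against 9.52, 9.62 and 6.75 CPM (log2FC 2.96 ± 0.26, adjusted p = 1.73e-06). Neither gene overlapped between the lines, like 66% of all genes tested, ITGB3 being the lower and ITGB8 the higher in EB-resistant cells. The integrin chain ITGAV, the partner of both, was called higher by a small amount, at 227 ± 8.55 CPM against 189 ± 6.69 CPM. Among 21 proteoglycan genes 7 were higher and 8 lower. The syndecan SDC3 had 78.6, 89.3 and 70.4 CPM in EB-resistant and 7.16, 5.44 and 4.18 CPM in VC-resistant libraries (log2FC 3.84 ± 0.19, adjusted p = 2.25e-09), and its relative SDC1 was lower at 34.8 ± 2.78 CPM against 111 ± 7.28 CPM (log2FC -1.67 ± 0.17, adjusted p = 5.68e-06).

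In the semaphorin system 11 of 28 genes were higher and 8 lower. The receptor gene PLXND1 had 124, 162 and 132 CPM in EB-resistant and 21.9, 19.7 and 21 CPM in VC-resistant libraries (log2FC 2.74 ± 0.13, adjusted p = 3.73e-10), and the coreceptor NRP2 had 32.9, 35.7 and 29.9 CPM against 172, 159 and 173 CPM (log2FC -2.36 ± 0.14, adjusted p = 1.29e-08). Plexin D1 was thus the higher and neuropilin 2 the lower in EB-resistant cells. Keratins, which are filaments of epithelia and hair, gave large single differences: KRT81, a hair keratin, had 21.3, 53.3 and 61.1 CPM in EB-resistant and 874, 1119 and 1098 CPM in VC-resistant libraries (log2FC -4.51 ± 0.35, adjusted p = 3.68e-06), and KRT17 was at 41.7 ± 5.78 CPM against 2.19 ± 1.77 CPM (log2FC 4.31 ± 0.57, adjusted p = 0.000149; log2FC 5.15 without VC-resistant replicate 2). Among the 262 genes with at least 500 CPM in every VC-resistant library KRT81 ranked second by size of difference, after NUP210, a nuclear pore protein, which had 46.4, 45.4 and 45.3 CPM in EB-resistant and 2406, 2343 and 2188 CPM in VC-resistant libraries (log2FC -5.66 ± 0.11, adjusted p = 1.71e-14). Of 32 HOX genes, which record body position, 6 were higher and 7 lower, both below the background.

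Of 24 genes of the PI3K, AKT and mTOR pathway 9 were higher and 9 lower, and 5 were lower without EB-resistant replicate 6. SGK1, a kinase related to AKT, had 30.4, 39.9 and 47.1 CPM in EB-resistant and 415, 213 and 196 CPM in VC-resistant libraries (log2FC -2.81 ± 0.34, adjusted p = 7.76e-05). The kinase gene AKT2 was higher (log2FC 0.91). Solute carriers gave 76 higher and 50 lower of 200. SLC12A8 had 56.5, 75.5 and 75.7 CPM in EB-resistant and 6.93, 5.15 and 5.75 CPM in VC-resistant libraries (log2FC 3.55 ± 0.14, adjusted p = 6.3e-11), and SLC6A15, a neutral amino acid transporter, had 1.04, 0.509 and 0.189 CPM against 89.8, 59.5 and 49.9 CPM (log2FC -6.83 ± 0.43, adjusted p = 5.35e-07; log2FC -7.55 without EB-resistant replicate 2). Both were clear of overlap, like 66% of all genes tested, in opposite directions.

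In the lysosome and autophagy group 15 of 37 were higher and 13 lower. Cathepsin K (CTSK), a collagen-degrading protease, was at 19.1 ± 1.7 CPM in EB-resistant and 1.17 ± 0.241 CPM in VC-resistant cells (log2FC 4.02 ± 0.18, adjusted p = 3.5e-10), and the cholesterol exporter NPC1 of the lysosome membrane was lower, at 83.8 ± 1.12 CPM against 362 ± 16.7 CPM (log2FC -2.11 ± 0.14, adjusted p = 3.68e-08).

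Some genes were at or near 0 counts in 1 of the lines. Among called genes, 26 had 3 counts or fewer over the VC-resistant libraries and at least 1 CPM in each EB-resistant library, and 16 had 3 counts or fewer over the EB-resistant and at least 1 CPM in each VC-resistant library. TFAP2B was at least 257-fold higher in EB-resistant cells, taking 3 counts per library as the floor of a line at 0. SGCE, the epsilon-sarcoglycan, had 12.9, 14.1 and 13.4 CPM in EB-resistant libraries and 0 counts in VC-resistant ones, at least 201-fold higher, and SLC17A9, a vesicular nucleotide transporter, had 6.15, 5.64 and 6.47 CPM and 0 counts, at least 91.0-fold higher. BATF, an AP-1 factor of immune cells, had 2.34 ± 0.104 CPM and 0 counts, at least 35.0-fold higher. In the other direction GTSF1, which works with piRNAs in germ cells, had 0 counts in EB-resistant libraries and 53.1, 44 and 47.3 CPM in VC-resistant ones, at least 774-fold lower. UCA1, a long noncoding RNA, had 0 counts in EB-resistant libraries and 9.11, 20.7 and 19.1 CPM in VC-resistant ones, at least 262-fold lower. ASTN1, an adhesion protein of migrating neurons, had 0 counts in EB-resistant libraries and 9.79, 6.78 and 5.91 CPM in VC-resistant ones, at least 120.4-fold lower. For VSIR the ratio of EB-resistant to VC-resistant CPM was 1432 with a 95% counting interval of 257 to 56586, and for NR5A1 the ratio of VC-resistant to EB-resistant CPM was 1941 with an interval of 348 to 76688. Both kinds of bound reflect counting error alone.

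Calls were uneven along the genome. On chromosome 22, 52.6% of tested genes were higher and 9.07% lower in EB-resistant cells (median log2FC 0.44), whereas on chromosome 15 13.7% were higher and 51.2% lower (median -0.40), and on chromosome 18 17.6% were higher and 47.8% lower (median -0.34). A running median over 15 neighbouring coding genes at or past 0.5 in size over at least 15 windows, a rule chosen with these data in view, marked 24 stretches, 11 higher and 13 lower, that held 899 of 11865 genes (7.58%). On chromosome 12, 96 genes from CLEC2B to TWF1 had 77.1% lower and 12.5% higher. On chromosome 18, 52 genes from USP14 to MIB1 had 76.9% lower. On chromosome 6, 35 genes from MBOAT1 to ZNF391 had 71.4% higher, a stretch in which 18 of the 29 tested histone genes lie. How far the histone genes make up that share was not tested. On chromosome 19, 38 genes from YJEFN3 to ZNF507 had 63.2% lower, a stretch that holds 28 of the 422 tested ZNF genes. Genes of such a stretch are neighbours and were called mostly on 1 side, and whether copy number went with it was not tested, since the files hold RNA counts alone.

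**Figure D4:**
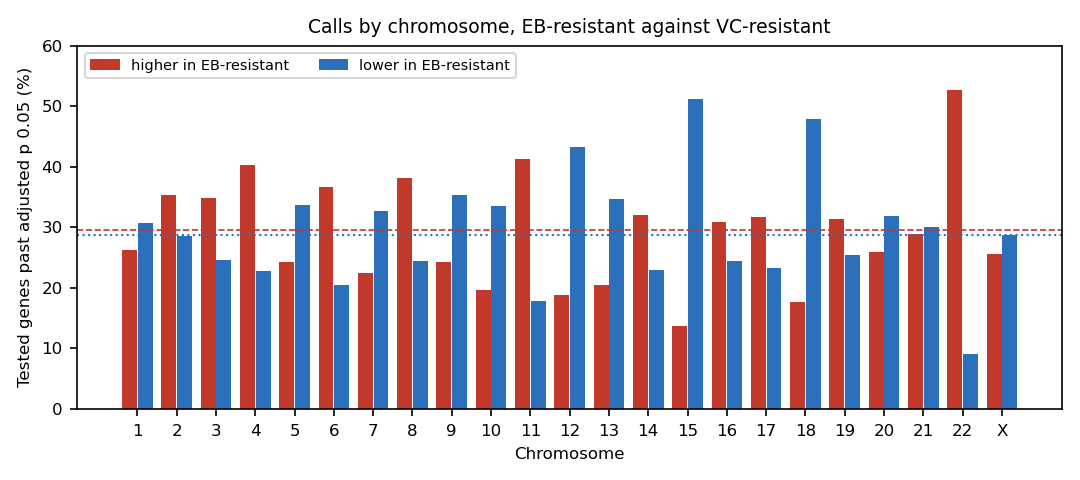
Share of tested genes on each chromosome that were higher (red) or lower (blue) in EB-resistant than in VC-resistant cells at an adjusted p under 0.05. The dashed red line at 29.6% and the dotted blue line at 28.8% mark all genes; chromosome 22 reaches 52.6% higher, and chromosomes 15 and 18 reach 51.2% and 47.8% lower.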

How the data were processed

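RNA was sequenced from polyadenylated RNA of 12 libraries in 4 groups of 3, of which the EB-resistant and VC-resistant libraries are compared here. The authors deposited raw read counts per gene, not normalised, with gene symbols and hg38 coordinates. The submitters' processing notes name bcl2fastq 2.20.0, STAR 2.7.10b, featureCounts 2.0.1 and DESeq2 1.38.3. The sources used here give no strand setting, annotation release or doses. A deposited table of scaled counts was not used here.

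Counts of all 12 libraries were fitted with edgeR 4.0.16 (R 4.3.3) after its filter on low counts, which left 17114 of 23497 genes, with TMM scaling and the robust quasi-likelihood test, with the Benjamini-Hochberg adjustment over all tested genes. A gene was called at an adjusted p under 0.05. Standard errors were derived from the log2 fold change and the test statistic. Data were simulated for this comparison over 16457 genes. Of 50 genes each changed by 1.5, 2, 4 and 8-fold, 38, 43, 50 and 50 were recovered, and 12 unchanged genes were called. Only these genes were changed in the simulation, a far smaller share than the 58.4% called in the data. Its recovery and its unchanged calls therefore do not describe a comparison with that many differences. Depth was similar in all libraries, and floors of 3 counts and 95% intervals cover counting error only.

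Named genes are the 15 highest and 15 lowest called genes whose higher line had no library under 5 CPM, up to 4 per direction from each gene list, and a fixed set of melanoma genes, of which those that carry a result are printed; other genes named were chosen after their values were seen. Some genes that this rule names are not reported here. The members and lists were chosen with earlier results of these data known. Same-numbered libraries of the 2 lines had deviations that correlated at 0.0737, 0.00931 and 0.0983, and differently numbered ones at -0.119 to 0.049. The same-numbered values were all positive but small, and the numbers were not taken as pairs. Alternatives tried were median-of-ratios size factors, no filter, DESeq2 1.42.0, only the 6 libraries, a replicate block and leaving out each library. Promoter sequences are from RefSeq.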

Additional observations from a re-analysis of the deposited data

How the results depend on the processing

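The counts of 5070 genes higher and 4921 lower in EB-resistant cells stayed within 1.5 times under every alternative tried. They were 5158 and 4817 with median-of-ratios size factors, 5284 and 5121 with no filter on low counts, 5191 and 4902 with DESeq2, and 5082 and 4945 with only the 6 libraries. Leaving out 1 library gave 4509 to 4807 higher and 4485 to 4739 lower. With the replicate number as a block, although the numbers were not taken as pairs, there were 5354 higher and 5213 lower. Genes at least 2-fold higher numbered 2063 to 2576 and lower 1409 to 1796 over all alternatives. No log2 fold change of a called gene named here turned its direction under these alternatives. The 90 counts of group members were recounted with each library left out, where 20 values left the 1.5-fold range and 520 stayed inside. With no filter on low counts 1 of the 90 left it (S phase genes, 3 higher). The replicate block moved 4, with 18 S phase genes higher and 12 lower, 2 MHC class I presentation genes higher and 1 histone gene lower. The cause was not tested. With only the 6 libraries EGFR (log2 fold change -0.22), MKI67 (-0.19) and SPRY1 (-0.67) were called lower, SPRY1 also with DESeq2; the cause was not tested. Depth limits genes with a few counts per library, and 1 line for each drug pair limits what any difference says about the drugs.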
